A study of Danio rerio with 10 samples.

Results

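The 18 probes described here carry the gene symbols of the mitochondrial respiratory chain, the ATP synthase and the uncoupling proteins of the zebrafish. They are all probes with a single annotation symbol that begins with nduf, sdh followed by a, b, c or d, uqcr, cox followed by a digit, cyc1, cycs, atp5 or ucp, and they were chosen by name and not by their values. They stand for 18 genes, 1 probe each, among the 16416 oligonucleotide probes of the array, of which 6088 carry 1 symbol, 75 carry several and 10253 carry none. Complex I contributed 9 probes, complex III 3, complex IV 3, the ATP synthase 2 and the uncoupling proteins 1. No probe of complex II and none of soluble cytochrome c bore a symbol that met the rule. RefSeq lists 122 protein-coding zebrafish symbols of the same pattern, so that the 18 genes are a sample of the pathway and not a survey of it.

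Whole adult male zebrafish were kept for 96 hours in 1 of 3 media, and RNA of 1 fish was hybridized to each of 10 arrays. The E2+ICI group (3 fish) received 10 nM 17β-estradiol (E2) together with 1 µM ICI 182,780, an anti-estrogen that blocks the estrogen receptor, the E2 group (3 fish) received 10 nM E2 alone, and the control group (4 fish) received the vehicle. All 3 media held ethanol at 0.01% by volume, and no genetic alteration is named in the labels. Each value is the log2 ratio of the fish (Cy3) to a common reference RNA (Cy5), which the methods describe as liver RNA of both sexes. A value is therefore a level relative to that reference and cannot be set against the value of another gene.

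Complexes I, III and IV pass electrons from NADH to oxygen and pump protons across the inner mitochondrial membrane, and the ATP synthase uses the returning protons to make ATP. Most subunits are encoded in the nucleus and imported, and dedicated assembly factors, which are no part of the finished enzyme, build the complexes and their metal and heme centres. Uncoupling proteins are carriers of the same membrane, and estrogens are known in mammals to act on nuclear genes of mitochondria in several tissues.

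The arrays differed in spread and completeness as well as in treatment. The SD over all probes of an array was 0.373 to 0.561 in E2+ICI, 0.461 to 0.514 in E2 and 0.796 to 1.07 in control fish, and 196 to 912 values were missing per array, none of them in the 18 genes. Control 4 correlated with the other controls at 0.676 to 0.718, whereas those correlated at 0.822 to 0.898 with each other. The vitellogenin transcript vtg3, the egg yolk precursor that E2 induces in males, read -0.39 to 0.01 in E2+ICI, 0.77 to 2.01 in E2 and -6.96 to -5.64 in control fish, which sets the direction of the ratio. Some marker lists of other tissues moved with treatment, and others hardly did. The array medians of 8 liver markers were -0.08 to -0.03 in E2+ICI, -1.29 to -1.25 in E2 and -0.59 to 0.74 in control fish. Of these 8, 5 fell in E2 and none rose. In E2+ICI, apoa1a rose (1.60, limma adjusted p = 0.000787) and cp fell (-0.92, limma adjusted p = 0.032). Those of 5 oocyte markers lay between -1.31 and 0.01 in E2+ICI, between 0.29 and 0.46 in E2 and between -5.71 and -4.99 in control fish, and all 5 passed against control in both treated groups. Of 4 heart markers, 3 fell in E2 fish, and their medians were 0.40 to 0.52 in E2+ICI, -0.18 to 0.10 in E2 and at least 0.67 in every control fish. Of 5 testis markers, among them the germ cell genes ddx4 and dazl of both sexes, 4 rose in E2 and 2 in E2+ICI, with medians of -1.13 to -0.30 in E2+ICI, 0.07 to 0.18 in E2 and -1.96 to -0.66 in control fish. Of 12 skeletal muscle markers, 1 rose and 1 fell in E2, and 2 rose in E2+ICI. Their medians were -0.28 to -0.03 in E2+ICI, -0.45 to -0.34 in E2 and -1.47 to -0.29 in control fish. None of 4 red blood cell markers differed from control in either treated group. Of 9 neuron marker probes, only gap43 rose in E2, and none differed from control in E2+ICI. Over all probes, 35.6% were called in E2 and 12% in E2+ICI, both against control. The muscle medians of whole control fish lie below 0 against a reference described as liver, so the make-up of the reference is not settled, and levels are given only relative to it. The part of these tissues in the results below was not tested. In RNA of a whole fish, fewer cells of a type and less RNA per cell cannot be told apart.

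**Figure D1:**
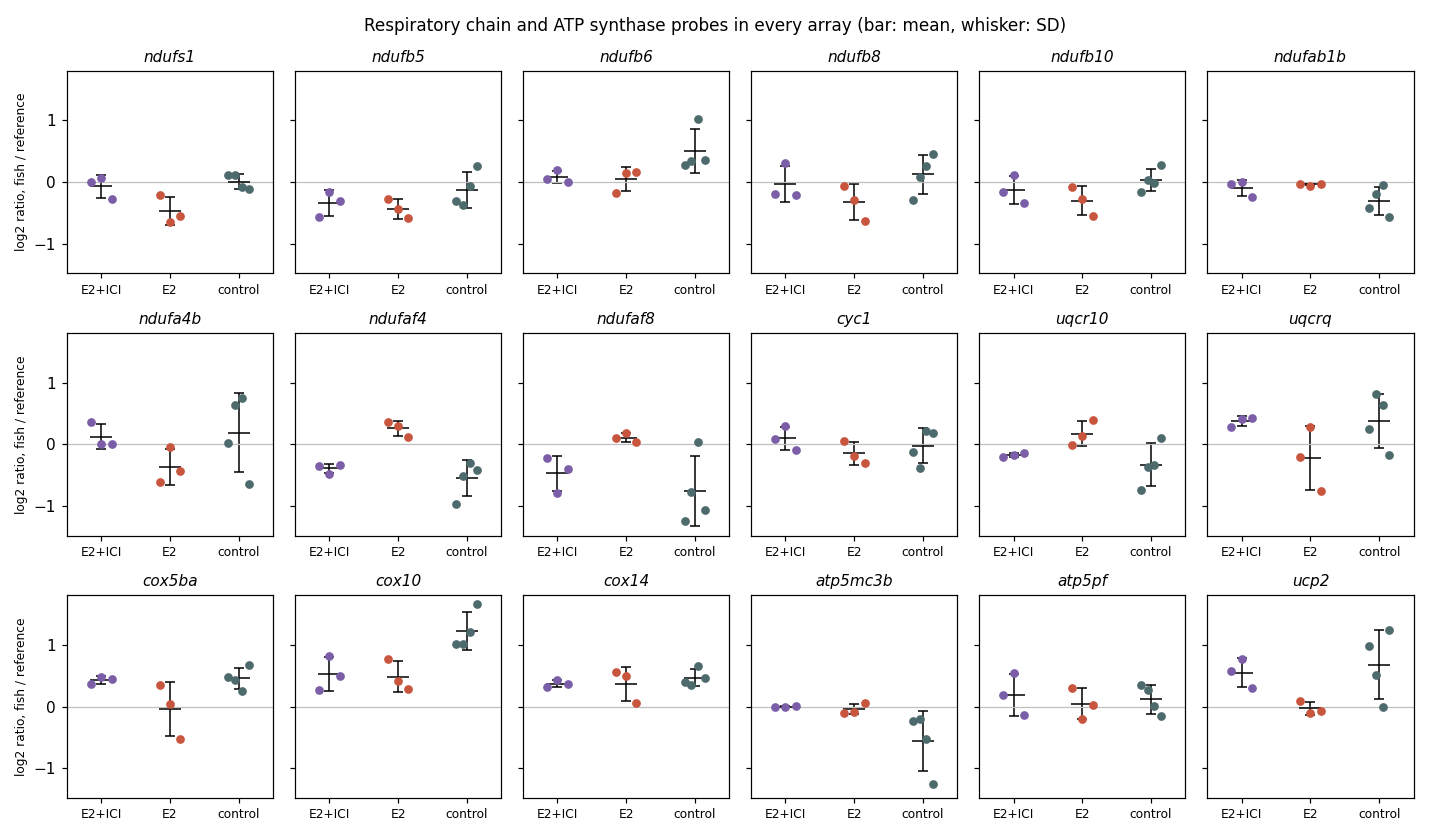
The log2 ratio of fish to reference (vertical axis) of each of the 18 genes in the 3 E2+ICI, 3 E2 and 4 control fish, with 1 point per array, the group mean as a bar and the SD as whiskers. The E2 points of ndufaf4 lie between 0.12 and 0.36, above all E2+ICI and control points, whereas those of cox10 lie with E2+ICI below all control points.

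The first question was which of these transcripts differed in males given E2. In the E2 fish, 4 of the 18 genes differed from control (limma, adjusted p under 0.05 over 16208 probes). The complex I assembly factors ndufaf4 and ndufaf8, the 2 whose symbols met the rule, rose 1.75-fold and 1.83-fold, whereas the complex I core subunit ndufs1 and the heme synthesis enzyme cox10 fell to 0.718 and 0.603 of their control level. The 4 genes are 22.2% of the members, against 35.6% of all probes called in this comparison, a gap that was not tested. Those that rose were 11.1% of the members, against 19.2% of all probes, and those that fell were 11.1%, against 16.5%. The arrays of both groups did not overlap in 6 genes, or 33.3%, against 43.1% of all probes. The median log2 fold change of the 18 genes was -0.32, compared with -0.07 over all probes, and 13 of the 18 values were negative. The median size of the change without regard to sign was 0.49, against 0.41 over all probes, and the median SD within E2 fish was 0.22, against 0.16. At an unadjusted p under 0.05 there were 10 genes (55.6%, against 45.1% of all probes). With control 4 left out, 7 genes passed, 3 higher and 4 lower. Without E2 replicate 3 only ndufaf4 passed.

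Subunits and assembly factors were set side by side, as 2 classes that were formed after the values had been seen. Among the 13 subunits of the complexes 1 passed the test, and 10 of the 13 log2 fold changes in E2 were negative, with a median of -0.33. Among the 4 assembly and heme factors (ndufaf4, ndufaf8, cox10 and cox14), 2 rose and 1 fell, with a median of 0.35. Over all probes 35.6% were called in E2, 19.2% higher and 16.5% lower, and the median log2 fold change was -0.07. The difference between the 2 classes was not tested. A further complex I assembly factor outside the rule, acad9, had a log2 fold change of 0.05 in E2 (limma adjusted p = 0.886).

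The gene ndufaf4 encodes an assembly factor that in human cells helps to join the early parts of complex I. Its log2 ratios were -0.36, -0.47 and -0.33 in E2+ICI fish, 0.36, 0.29 and 0.12 in E2 fish, and -0.97, -0.51, -0.30 and -0.42 in control fish. The 3 E2 fish stood above all 7 other fish, and the E2+ICI values lay inside the range of control. In E2 it rose by 0.81 on the log2 scale, with an SE of 0.17 and a 95% interval of 0.43 to 1.18 (limma, adjusted p = 0.0036). This was the one gene that passed each time an array was left out (10 of 10) and under all 12 other settings tried. Its adjusted p, or SAM q-value, was at most 0.0294. Not all of these are separate checks: the settings on missing values, repeated values and averaged probes leave its own values as they were. In E2+ICI the difference from control was 0.16 (SE 0.17, limma adjusted p = 0.599), a sign that turns when the arrays are quantile normalized or scaled to equal spread. Against E2 it was -0.65 (SE 0.18, limma adjusted p = 0.0628), just short of the threshold, and it passed without control 1 or without control 4. With no array left out, it passed under quantile normalization (limma adjusted p = 0.00365), equal spread (limma adjusted p = 0.00629) and array weights (limma adjusted p = 0.00996). A fit of only the 2 groups called it too (limma adjusted p = 0.0128).

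The second complex I factor, ndufaf8, is needed in human cells for the stability of another assembly factor. It read -0.22, -0.79 and -0.40 in E2+ICI fish, 0.11, 0.18 and 0.04 in E2 fish, and -1.24, -0.77, 0.04 and -1.06 in control fish. All E2 values stood above all control values, but the lowest E2 fish, at 0.0440, barely exceeded control 3, at 0.0430. In E2 the log2 fold change was 0.87 (SE 0.27, limma adjusted p = 0.0274). The call was lost without control 1, control 2 or any 1 of the 3 E2 fish, where the adjusted p reached 0.0796, and with SAM (q = 0.0505), while the log2 fold change over all arrays left out stayed between 0.71 and 1.14. In E2+ICI the change was 0.29 from control (SE 0.27, limma adjusted p = 0.548) and -0.58 from E2 (SE 0.29, limma adjusted p = 0.248), with all E2+ICI fish below all E2 fish, and the sign of the value against control turns under quantile normalization and equal spread.

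The subunit ndufs1 is the largest core subunit of the peripheral arm of complex I and carries iron-sulfur clusters. It read 0.01, 0.07 and -0.27 in E2+ICI fish, -0.21, -0.64 and -0.55 in E2 fish, and 0.12, 0.11, -0.08 and -0.11 in control fish. The E2 fish were below all control fish, and E2 fish 1 lay within the range of E2+ICI. In E2 its log2 fold change was -0.48 (SE 0.16, limma adjusted p = 0.0354). It no longer passed without control 1, control 2, E2 replicate 2, E2 replicate 3 or E2+ICI replicate 1, with an adjusted p of up to 0.131, nor with only the 2 groups in the fit (limma adjusted p = 0.0517) or with SAM (q = 0.0624). Its log2 fold change over all arrays left out stayed between -0.61 and -0.39. In E2+ICI the difference from control was -0.08 (SE 0.16, limma adjusted p = 0.811), and that from E2 was 0.40 (SE 0.17, limma adjusted p = 0.174).

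Of the 6 other complex I probes, none passed in E2, and 5 of them had negative values. These belong to ndufb5, ndufb6, ndufb8 and ndufb10, accessory subunits of the membrane arm, to ndufab1b, the mitochondrial acyl carrier protein, and to ndufa4b, whose mammalian counterpart is now counted with complex IV. For ndufb6 the log2 ratios were 0.05, 0.20 and 0.01 in E2+ICI fish, -0.18, 0.16 and 0.17 in E2 fish, and 0.27, 0.34, 1.03 and 0.36 in control fish. Both treated groups were thus below every control fish, with log2 fold changes of -0.41 in E2+ICI (limma adjusted p = 0.208) and -0.45 in E2 (limma adjusted p = 0.095), and neither passed. The probes of ndufb5, ndufb8 and ndufb10 had log2 fold changes of -0.31, -0.45 and -0.33 in E2, with limma adjusted p of 0.227, 0.133 and 0.159. In these 3 genes the values of E2 and control fish overlapped.

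Among the complex I genes the SD within control fish was widest for ndufa4b, which ran between 0.00 and 0.35 in E2+ICI, between -0.61 and -0.05 in E2 and between -0.64 and 0.75 in control fish. Control 4 was the fish at -0.64, and the other 3 controls lay between 0.03 and 0.75. The log2 fold change in E2 was -0.56 (limma adjusted p = 0.177), and without control 4 it was -0.83 (limma adjusted p = 0.00816). With array weights and no array left out it was -0.86 (limma adjusted p = 0.00381). For ndufab1b, the difference in E2 was 0.27 (limma adjusted p = 0.205), with -0.05 to -0.02 in E2 fish and -0.56 to -0.04 in control fish.

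Complex III was represented by cyc1, the cytochrome that hands electrons to soluble cytochrome c, and by the small subunits uqcr10 and uqcrq. None of the 3 passed in any comparison of the fit used throughout. The values of uqcr10 were -0.20, -0.16 and -0.14 in E2+ICI fish, -0.01, 0.14 and 0.39 in E2 fish, and -0.73, -0.36, -0.33 and 0.11 in control fish. Only control 4 reached into the E2 range, and the log2 fold change in E2 was 0.50 (SE 0.19, limma adjusted p = 0.0627), or 0.65 without control 4 (limma adjusted p = 0.00626). It passed under quantile normalization (limma adjusted p = 0.0487) and equal spread (limma adjusted p = 0.0427), and in the ratios before Lowess it was only 0.15 (limma adjusted p = 0.702). The sister subunit uqcrq pointed the other way, with 0.29, 0.41 and 0.43 in E2+ICI fish, -0.21, 0.29 and -0.75 in E2 fish, and 0.25, 0.82, 0.63 and -0.17 in control fish. Its log2 fold change in E2 was -0.61 (SE 0.27, limma adjusted p = 0.103), and without control 4 it was -0.79 (limma adjusted p = 0.018) and before Lowess -0.83 (limma adjusted p = 0.0249). These 2 subunits of 1 complex therefore had values of opposite sign in E2. With all 10 arrays neither passed in the fit used throughout, but with array weights both did (limma adjusted p = 0.00381 for uqcr10 and 0.00432 for uqcrq). For cyc1 the difference in E2 was -0.13 (limma adjusted p = 0.634).

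In complex IV the probe of cox10 stood apart. Its product adds the farnesyl side chain of heme a, the first step in making the heme that only cytochrome c oxidase uses. The log2 ratios of cox10 were 0.27, 0.82 and 0.50 in E2+ICI fish, 0.77, 0.41 and 0.28 in E2 fish, and 1.01, 1.00, 1.20 and 1.65 in control fish. All 6 treated fish were below all 4 control fish, and the ranges of the treated groups overlapped almost fully. The log2 fold change was -0.73 in E2 (SE 0.21, limma adjusted p = 0.0176) and -0.69 in E2+ICI (SE 0.21, limma adjusted p = 0.0547). E2+ICI and E2 differed by 0.04, with a 95% interval of -0.44 to 0.53 (limma adjusted p = 0.933). The call in E2 depends on scaling: the change ran between -0.28 and -0.79 over 12 other settings and did not pass when the arrays were quantile normalized, scaled to equal spread or taken before Lowess, nor without E2 replicate 2 or E2 replicate 3. The call in E2+ICI is made without E2+ICI replicate 2, at -0.83 (limma adjusted p = 0.0397). With array weights on all 10 arrays it is made too, at -0.65 (limma adjusted p = 0.013).

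The subunit cox5ba, a nuclear-encoded subunit of complex IV that binds zinc, had 0.37, 0.48 and 0.44 in E2+ICI fish, 0.35, 0.04 and -0.52 in E2 fish, and 0.48, 0.43, 0.25 and 0.67 in control fish. The E2+ICI and control fish lay close together, and the E2 fish were spread over a wide range that reached lower. Its log2 fold change in E2 was -0.50 (SE 0.20, limma adjusted p = 0.0694). It passed without E2 replicate 1, at -0.70 (limma adjusted p = 0.0246), and with array weights, at -0.54 (limma adjusted p = 0.0343), and under no other setting. For cox14, a factor that in human cells accompanies the newly made first subunit of complex IV, the difference in E2 was -0.10 (limma adjusted p = 0.66), and its sign turned under quantile normalization and equal spread.

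Both ATP synthase probes stayed short of the threshold in all 3 comparisons. The product of atp5mc3b is a subunit of the membrane ring that turns as protons pass, and its log2 ratios were -0.01, -0.01 and 0.01 in E2+ICI fish, -0.10, -0.08 and 0.05 in E2 fish, and -0.24, -0.20, -0.52 and -1.24 in control fish. In these values every treated fish was above every control fish, with log2 fold changes of 0.55 in E2+ICI (limma adjusted p = 0.147) and 0.51 in E2 (limma adjusted p = 0.102). Before Lowess, with array medians set to 0, the changes were 0.27 in E2+ICI (limma adjusted p = 0.512) and 0.12 in E2 (limma adjusted p = 0.726). As deposited, the ratios before Lowess have differing array medians, 0.106 in control 1 and -0.675 in E2 replicate 1. In them control 1, at 0.15, was above all 6 treated fish, an order that does not hold with medians of 0. After Lowess the E2+ICI values sit near 0, and that of E2+ICI replicate 3 is a number that 373 probes of the same array share. For atp5pf, coupling factor 6 of the stalk, the log2 fold change was 0.07 in E2+ICI and -0.07 in E2, with limma adjusted p above 0.8 in both.

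The carrier ucp2, an uncoupling protein found in many tissues, read 0.58, 0.77 and 0.30 in E2+ICI fish, 0.10, -0.11 and -0.08 in E2 fish, and 0.98, 0.51, -0.01 and 1.24 in control fish. The E2+ICI fish were all above the E2 fish, and 3 of 4 control fish were as well, while control 3 fell among the E2 fish. The log2 fold change in E2 was -0.71 (SE 0.26, limma adjusted p = 0.0547), and without control 3 it was -0.94 (limma adjusted p = 0.00649). With array weights and no array left out it was -0.57 (limma adjusted p = 0.0249). In E2+ICI it was -0.13 from control (SE 0.26, limma adjusted p = 0.806) and 0.58 from E2 (SE 0.28, limma adjusted p = 0.233), and its sign against control turns when arrays are quantile normalized or scaled to equal spread.

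**Figure D2:**
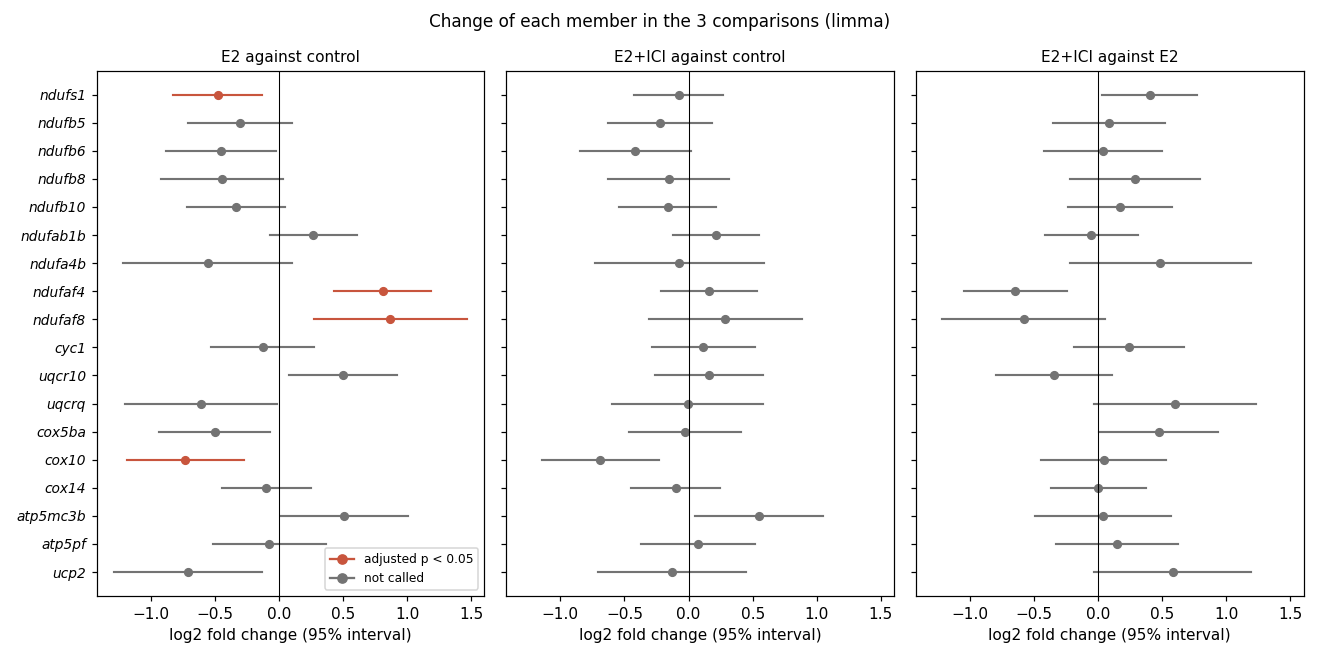
The log2 fold change (horizontal axis) of each gene with its 95% interval from the limma fit, with E2 over control on the left, E2+ICI over control in the middle and E2+ICI over E2 on the right. The 4 genes in red passed at an adjusted p under 0.05, all of them in E2 over control.

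The second question was how far the anti-estrogen altered these levels. In E2+ICI against control 0 of 18 genes passed with limma, compared with 12% of all probes, and SAM called none either. At an unadjusted p under 0.05 there were 2 (11.1%, against 26.2% of all probes), atp5mc3b and cox10. The arrays did not overlap in 3 genes (16.7%, against 25% of all probes), namely atp5mc3b, cox10 and ndufb6. The median size of the change was 0.16, against 0.26 over all probes.

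In E2+ICI against E2 again 0 of 18 genes passed with limma, where 5.42% of all probes did, and 3, namely ndufaf4, ndufs1 and cox5ba, had an unadjusted p under 0.05 (16.7%, against 24.2% of all probes). SAM can make no call here, since 20 regroupings of 6 fish are too few. The arrays did not overlap in 7 genes (38.9%, against 42.5% of all probes): ndufaf4, ndufaf8 and uqcr10 were lower in every E2+ICI fish than in every E2 fish, and ndufa4b, uqcrq, cox5ba and ucp2 were higher. In 15 of 18 genes (83.3%) the E2+ICI mean fell between the E2 and control means, against 56.3% of all probes. The exceptions were atp5mc3b, atp5pf and cyc1. These shares were counted in the deposited scaling only. Under quantile normalization the E2+ICI mean lay beyond control for ndufaf4 (-0.15 from control), ndufaf8 (-0.09), uqcrq (0.15), cox5ba (0.21) and ucp2 (0.18). The same genes did so under equal spread. Before Lowess the mean lay beyond control for ndufab1b (-0.17 from control) and uqcr10 (-0.15). It lay beyond E2 there for ndufb5 (-0.05 from E2), cox10 (-0.10) and cox14 (-0.19). For ndufb5 it was also just beyond E2 under quantile normalization (-0.01). The comparison of E2+ICI with E2 shares its E2 fish, and that with control its control fish, with that of E2 with control. The 3 sets of values are therefore not independent.

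Neighbouring pathways on the array were described by the same fit. A list of 10 probes covers the tricarboxylic acid cycle and pyruvate dehydrogenase, which supply the respiratory chain with NADH. It also holds the cytosolic malate dehydrogenases mdh1aa and mdh1ab and the pyruvate carboxylase pcxb, which are part of neither. In E2, 5 of its probes fell and 1 rose, with a median log2 fold change of -0.56. Those that fell included the subunits of succinyl-CoA ligase suclg2 (-0.68, limma adjusted p = 0.017) and sucla2 (-0.63, limma adjusted p = 0.0243), ogdha of the oxoglutarate dehydrogenase (-0.56, limma adjusted p = 0.0275) and dlat of the pyruvate dehydrogenase (-0.59, limma adjusted p = 0.0254). The call of dlat was lost under quantile normalization and equal spread, and that of sucla2 before Lowess. The paralogs of cytosolic malate dehydrogenase changed in opposite directions, mdh1aa by -0.86 (limma adjusted p = 0.00749) and mdh1ab by 0.67 (limma adjusted p = 0.0151), and mdh1ab was not called under quantile normalization, equal spread or the values before Lowess. In E2+ICI against control 1 of the 10 fell and none rose.

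Of 13 probes for import and folding of mitochondrial proteins, 5 rose in E2 and none fell, with a median of 0.35. They were timm10b (1.08, limma adjusted p = 0.00137), the chaperonin hspd1 (0.95, limma adjusted p = 0.00157), timm50 (0.82, limma adjusted p = 0.00171), timm9 (0.62, limma adjusted p = 0.015) and timm13 (0.61, limma adjusted p = 0.0313). The timm genes belong to the machinery that carries proteins into the inner membrane and matrix, and hspd1 to protein folding. Before Lowess timm50 and timm10b passed. In E2+ICI, hspd1 and timm50 were higher than control by 0.69 (limma adjusted p = 0.026) and 0.55 (limma adjusted p = 0.0388). Neither was called under quantile normalization or before Lowess, and hspd1 alone was called with medians of 0 and with equal spread. Under quantile normalization 1 other import probe was called lower than control. All 13 probes were below their E2 value with none passing, whereas 4 passed as lower under quantile normalization and under equal spread, and 3 without control 4. Of 16 mitochondrial ribosome probes 4 rose and 1 fell in E2, with mrps23 (0.97, limma adjusted p = 0.00504) and mrps26 (0.96, limma adjusted p = 0.00286) ahead and a median of 0.16, and the fall, of mrps18b, was not called under quantile normalization or equal spread, nor mrps23 before Lowess.

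Among 10 probes for regulators of mitochondrial genes, both probes of pprc1, a coactivator related to PGC-1, rose in E2. On the log2 scale they rose by 1.47 (limma adjusted p = 0.00018) and 2.27 (limma adjusted p = 1.71e-05), and the other 8 did not pass. In E2+ICI the same probes were above control by 1.12 (limma adjusted p = 0.00142) and 1.72 (limma adjusted p = 0.000324). Against E2 their log2 fold changes were -0.35 (limma adjusted p = 0.305) and -0.55 (limma adjusted p = 0.122), and neither passed. Under quantile normalization and under equal spread, 1 of the 10 regulator probes was called lower than in E2. A list of 15 probes for carriers and porins also holds phb, which is neither, and slc25a17, a carrier of peroxisomes. In E2, 2 of its probes rose and 4 fell, and slc25a17 was 1 of those that fell (-0.94, limma adjusted p = 0.0362). The paralogs of the citrate carrier moved in opposite directions, slc25a1a by 1.11 (limma adjusted p = 0.000173) and slc25a1b by -1.35 (limma adjusted p = 0.00419). The outer membrane channel vdac2 fell by 0.97 on the log2 scale (limma adjusted p = 0.000738). Of 4 fatty acid oxidation probes cpt1ab, which admits long-chain fatty acids to the mitochondrion, fell in E2 (-1.24, limma adjusted p = 8.78e-05) and, less far from control, in E2+ICI (-0.57, limma adjusted p = 0.0399), where it was 0.67 above E2 (limma adjusted p = 0.0454). The call against control was lost under quantile normalization and equal spread, and that against E2 with medians of 0 and before Lowess. Of 12 glycolysis probes 2 rose and 5 fell, led by tpi1a (2.43, limma adjusted p = 1.95e-05) and pfkpa (-1.06, limma adjusted p = 0.000613), and before Lowess 1 rose and 3 fell. In E2+ICI against control, tpi1a rose (1.60, limma adjusted p = 0.00108) and pgam2 fell (-1.04, limma adjusted p = 0.00225). Against E2, mdh1aa (0.91, limma adjusted p = 0.039) and vdac2 (0.87, limma adjusted p = 0.0185) were higher in E2+ICI. So were ldha (0.90, limma adjusted p = 0.0076) and pfkpa (1.03, limma adjusted p = 0.0131). Lower than in E2 were slc25a1a (-0.61, limma adjusted p = 0.0454) and mrps23 (-0.94, limma adjusted p = 0.0468). Before Lowess, 1 glycolysis probe was the only call against E2 in these lists. None of these lists was tested as a list. Counts in E2 stand beside 35.6% of all probes called against control, 19.2% higher and 16.5% lower. Those in E2+ICI stand beside 12% against control and 5.42% against E2. Of 16208 probes, 3937 were called in E2+ICI against E2 under quantile normalization and 3891 under equal spread. Without control 4, 2696 of 16178 were.

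**Figure D3:**
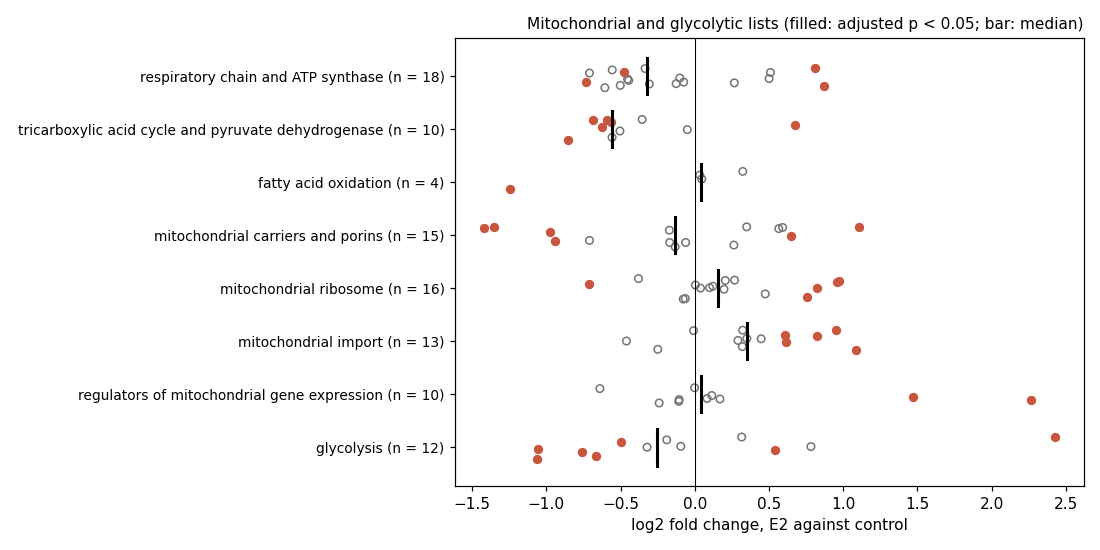
The log2 fold change in E2 against control (horizontal axis) of each probe of 8 gene lists (rows), with called probes filled and the list median as a bar; the vertical scatter within a row has no meaning. The respiratory chain list has a median of -0.32, and the import list has 0.35. The tricarboxylic acid cycle list, which also holds cytosolic malate dehydrogenase and pyruvate carboxylase, has -0.56.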

How the data were processed

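Each array compared Cy3-labelled RNA of 1 whole fish with Cy5-labelled common reference RNA. The authors measured spots with a GenePix scanner, subtracted the local background, applied Lowess normalization and chose arrays by scatter plot, and the deposited values are log2 ratios. The methods name 4 replicates for each treatment, whereas the normalized data held 4 control, 3 E2 and 3 E2+ICI samples. A second deposited table holds log2 ratios before Lowess. Versions of the software used on the arrays are not given in the sources used here. No intensities were used, so the number of arrays limits the precision. The sample titles give the E2 dose in mM, and the nM of the treatment protocol was used. The design text counts fewer controls than the 4 control samples listed.

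limma 3.58.1 (R 4.3.3) was fitted to all 10 arrays with 3 group means and moderated, two-sided tests. A probe could lack no more than 6 values and needed 2 or more in every group, which left 16208 probes, with Benjamini-Hochberg adjustment over all of them and a threshold of 0.05. All 18 genes passed this filter. The methods' test, SAM, was an alternative, coded anew with 35 regroupings against control and 20 between the treated groups. Here it compared 2 groups at a time and called a q-value under 0.05. The methods first ran SAM on all 3 groups, at a less strict q-value limit, and then on 2. Other settings tried were equal spread of the arrays, quantile normalization, medians of 0, the ratios before Lowess, array weights, complete probes, no filter, missing in place of repeated values, the mean of probes with 1 symbol, a fit of only the 2 groups compared, the replicate number as a block, and each array left out in turn. The ratios before Lowess were fitted after the median of each array had been set to 0. Both tests were first tested on simulated data. Tables were made with Python 3.11.15 and pandas 2.3.3.

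The rule for named genes took the smallest p-values within each complex, the highest and lowest control means and outlying controls, and with 18 genes all could be named. The members and lists were chosen with earlier results of these data known. All 18 symbols matched RefSeq by gene ID. Relatives in duplicate (atp5mc3a, cox5bb, ndufa4a, ndufab1a) exist for 4 genes, and cross-hybridization with them was not tested. Sequences were not used here, and quantitative PCR and cell line data were not analysed here. Groups come from the sample labels, which give RNA of individual fish as the replicate. Tanks are not named in the labels, so p-values measure the spread between fish only.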

Additional observations from a re-analysis of the deposited data

Results flagged for a closer look

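In control fish, ndufb6 of control 3 stood at 1.0283, whereas the other 3 controls lay between 0.27 and 0.36. The gap to the nearest control was 0.881 of the range of the group, above the limit set for 4 samples. Of 18 such groups of 4 controls tested, 1 exceeded it, and chance alone does so in about 1 of 20 groups.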

How the results depend on the processing

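In E2 against control, 4 genes passed, and the count moved to 9 with array weights and to 2 with SAM. Leaving out 1 array gave 1 to 7. The low values were 2 without control 1, control 2 or E2 replicate 2 and 1 without E2 replicate 3, and the high value of 7 came without control 4. In E2+ICI against control, 0 passed, 1 with array weights and 0 to 1 when an array was left out. In E2+ICI against E2, 0 passed, 3 under each of quantile normalization, equal spread, array weights and a fit of only the 2 groups, and 0 to 1 when an array was left out. The 3 were ndufaf4, ndufaf8 and ucp2, except with array weights, where they were ndufaf4, uqcrq and cox5ba. No call reversed its direction, but the sign of values that did not pass turned under 1 or more scalings for 1 gene in E2 against control, 10 in E2+ICI against control and 3 in E2+ICI against E2. The cause of these shifts was not tested.

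Replicate numbers are shared between groups, but same-numbered fish did not deviate together (r between -0.232 and 0.172 over 9 pairs, against -0.271 to 0.328 over 24 other pairs), so the replicate block of the pairing by number is only an alternative. With this block 7 genes passed in E2 against control and 0 in both other comparisons. Only the control group has a replicate 4, so the block fits control 4 exactly and takes it out of the comparisons. The median log2 fold change of the 18 genes in E2 was -0.22 with the block and without control 4 alike. The block is thus no check apart from leaving out control 4.

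Over all probes, E2+ICI against control gave 1939 calls, 1027 with quantile normalization, 1117 with equal spread, 3631 with array weights, 1214 with only the 2 groups and 1130 with SAM. The share of higher calls was 74.6%, or 53.6% after quantile normalization. E2+ICI against E2 gave 879 calls, 3937 with quantile normalization, 3891 with equal spread, 385 before Lowess, 3846 with array weights, 3314 with only the 2 groups, 2090 with the block and 0 with SAM. The share of higher calls was 53.1%, or 37.7% before Lowess. Each group has 3 or 4 fish, and no spot intensities were used, so signal over background is unknown.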
